A study of Mus musculus with 6 samples.

Results

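Translation initiation factor genes were defined here by name: every gene of the deposited mouse S4U-seq table whose symbol begins with Eif and a digit and is no pseudogene, which gave 58 of 23259 gene names. The rule used no measured value. Of the 58 names, 53 are current symbols and 5 are older ones. Of these older names Eif2c1, Eif2c2, Eif2c3 and Eif2c4 go against the label, being earlier symbols of Ago1, Ago2, Ago3 and Ago4, the Argonaute genes of small-RNA silencing. They are kept because the rule takes them, and described last. Eif3j, now Eif3j1, has the same values in every column as Gm9781, an older name of its near-copy Eif3j2, so its reads cannot be assigned to either copy.

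S4U-seq marks new RNA by feeding cells 4-thiouridine. After alkylation with iodoacetamide, thiouridine is read as C in place of T, so T-to-C reads contain RNA made during labelling, together with sequencing errors and sequence differences. No unlabelled control was analysed here. The labels give 6 samples, 2 each of Pabpn1l-null zygotes, WT 2-cell embryos and WT zygotes. Per the labels each sample held 50 embryos from mated females, labelled in 200 µM S4U for 2 h, with zygotes taken 26 h after hCG, the hormone injected to trigger ovulation. The same protocol text stands under the 2-cell samples, so the hour of their collection is unclear. Strain, age and the allele behind "Pabpn1l-null" are not stated in the labels. Pabpn1l encodes an oocyte poly(A)-binding protein that takes part in the clearance of maternal mRNA.

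Translation begins when eIF2 brings the initiator tRNA to the small ribosomal subunit, eIF1, eIF1A, eIF3 and eIF5 help it find the start codon, and eIF4E, eIF4G and eIF4A join the capped mRNA to it. After fertilisation the mouse embryo lives on stored maternal mRNA, whose use is governed by its poly(A) tail and by eIF4E-binding repressors, until most of that mRNA has been degraded and the embryo's own genome is transcribed at the 2-cell stage. Several factors exist as paralogue pairs, one of which can dominate in the oocyte, as the oocyte cap-binding protein eIF4E1B does.

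The table has 1 pair of count columns per group, so no difference below has a replicate check, and each test compares libraries and not conditions. The columns held 1270347, 4020444 and 3001472 reads in null zygotes, 2-cell embryos and WT zygotes, of which 48987, 182592 and 90945 were T-to-C reads. Few reads in null zygotes stood alone. Where WT zygotes predicted 3 to 5 null reads, in 1295 genes, 58.3% of them had none, and 2.27% would if reads were independent. For this reason 7 reads were taken as 1 molecule, also in the other columns, where clumps were not measured. All intervals are exact 95% intervals on molecules and cover counting error only. The targeted gene Pabpn1l had 4, 14 and 47 reads in null zygotes, 2-cell embryos and WT zygotes, a null-to-WT ratio of 0.188 with an interval of 0.00701 to 2.46. That interval includes no difference, and which part of the gene the allele removes was not given, so the value checks the label only weakly. Of 10 oocyte and zygote markers the unscaled reads summed to 23846, 15606 and 44138 in the same order, and Bmp15 gave 9708, 7874 and 26444 of them. After scaling to library size, this sum stood at 1.195 of WT zygotes in null zygotes (1.15 to 1.25) and at 0.272 in 2-cell embryos (0.259 to 0.285). Btg4 and Zp3 fell least there, to 0.867 and 0.859. Of 8 markers of the 2-cell embryo, 7 of them in the table, the reads summed to 21, 11846 and 205. Among these Dux went the other way, with 13, 84 and 150 reads. Cumulus and granulosa markers summed to 4, 22 and 27 reads with 6 of 10 at 0 everywhere, and sperm markers to 0, 4 and 8 reads with 2 of 6 at 0 everywhere. The 4 blood markers in the table, of 5 listed, summed to 1, 23 and 42 reads, all of them from Laptm5.

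The members took 10022 reads in null zygotes, 28672 in 2-cell embryos and 24294 in WT zygotes. These are 0.789%, 0.713% and 0.809% of their columns. Of the 58, 51 had at least 20 reads over the 3 columns and were tested. The other 7 were Eif2ak2, Eif2s3y, Eif3d, Eif3e, Eif3g, Eif3k and Eif4ebp3, and Eif3k had no read anywhere. In the null column 13 members had no read, against 2 in the 2-cell column and 2 in the WT zygote column. The null column was also the smallest, at 1270347 reads, and the share of all gene names without a read was not counted. The table does not give exonic lengths, so levels are set side by side only within a gene or as shares of a family's reads.

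Promoters are shown for 3 members because they belong to the pair of eIF1 paralogues that went opposite ways at the 2-cell stage and to the scaffold gene Eif4g1. They come from RefSeq (GRCm38.p6, the assembly mm10 represents), run 5′ to 3′ from 250 bases before the start to 50 after it, and all lie on the plus strand. Eif1 is at chr11:100319699-100319998, Eif1b at chr9:120492356-120492655 and Eif4g1 at chr16:20672477-20672776. Capitals mark matches on either strand to the E-box CACGTG, the CCAAT box CCAAT, the GC box GGGCGG and the TATA box TATAAA, and no matches overlapped.
Eif1: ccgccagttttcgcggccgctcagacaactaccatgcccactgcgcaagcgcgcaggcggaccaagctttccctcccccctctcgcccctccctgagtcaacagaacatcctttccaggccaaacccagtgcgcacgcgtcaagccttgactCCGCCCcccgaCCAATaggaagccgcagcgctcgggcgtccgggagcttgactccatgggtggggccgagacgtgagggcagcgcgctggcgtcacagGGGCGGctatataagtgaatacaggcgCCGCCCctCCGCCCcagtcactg
Eif1b: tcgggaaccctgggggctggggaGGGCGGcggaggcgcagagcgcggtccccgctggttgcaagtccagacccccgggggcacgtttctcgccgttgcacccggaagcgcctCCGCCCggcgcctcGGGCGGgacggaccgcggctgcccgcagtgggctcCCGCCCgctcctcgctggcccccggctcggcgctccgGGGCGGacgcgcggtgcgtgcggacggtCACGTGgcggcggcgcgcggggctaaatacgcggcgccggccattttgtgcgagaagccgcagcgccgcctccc
Eif4g1: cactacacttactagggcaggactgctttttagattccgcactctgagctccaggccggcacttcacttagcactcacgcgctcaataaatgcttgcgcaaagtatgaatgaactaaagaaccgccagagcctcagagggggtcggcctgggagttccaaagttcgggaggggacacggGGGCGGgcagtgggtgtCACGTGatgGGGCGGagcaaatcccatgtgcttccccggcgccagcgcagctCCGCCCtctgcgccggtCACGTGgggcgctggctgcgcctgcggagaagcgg
The Eif1 window holds 1 CCAAT box and 4 GC boxes, the Eif1b window 1 E-box and 5 GC boxes, and the Eif4g1 window 2 E-boxes and 3 GC boxes.

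Of the 58 names, 46 matched the promoter table, with 60 promoters. A GC box stood in 73.3% of them and in 35.7% of all 32851 promoters of the same length. The E-box stood in 12 of the 60 and in 7.15% of all promoters, the CCAAT box in 28.3% of member promoters and 37.4% of all, and the TATA box in 6.67% of member promoters and 13.6% of all. The median GC content was 62.7% in member promoters and 52.7% in all promoters, with medians of 25 and 7 CpG. Among members called higher at the 2-cell stage, 5 of 7 promoters held a CCAAT box, against 3 of 11 among those called lower. Counted by gene, since Eif2c1 and Eif4enif1 each have several windows, these were 4 of 6 genes called higher and 3 of 8 called lower. These letter matches are descriptions of the windows.

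In null against WT zygotes no Eif-named gene passed the threshold, which was an adjusted p under 0.05 with at least a 2-fold difference. In total reads 0 of 51 members were called higher, beside 0.701% of all genes tested, and 0 of 51 lower, beside 0.799%. edgeR's exact test at an assumed variation also called 0, and 10 were called (2 higher, 8 lower) when every read counted as 1 molecule, beside 25.1% of all genes. By the exact binomial test 7 members had an unadjusted p under 0.05, namely Eif1b, Eif2c3, Eif2s2, Eif4a1, Eif4e, Eif4h and Eif5. Of these, 2 passed the adjusted p but not the fold. The share of all genes passing either p without the fold was not counted, so these numbers describe the members only. Eif4e, the general cap-binding protein, had 471 reads in null zygotes and 1684 in WT zygotes, a ratio of 0.619 with an interval of 0.462 to 0.809 and an adjusted p of 0.0132 by the exact binomial test. Eif2s2, the beta subunit of eIF2, had 412 and 1472 reads in the same order, a ratio of 0.619 with an interval of 0.458 to 0.833 and an adjusted p of 0.0358 by the exact binomial test. Both stood lower in the null library by less than the 2-fold demanded.

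The remaining members scattered on both sides. The median log2 ratio of null over WT zygotes was -0.32 over the 51 tested members and -0.18 over all 11262 genes tested. A ratio above 1 was seen for 37.3% of the members and 39.2% of all genes. Among tested members with reads in both columns the highest ratios were those of Eif3l at 6.27 (interval 0.23 to 261, from 17 null and 6 WT reads), Eif4a3 at 2.14 (0.412 to 11.9) and Eif2b2 at 1.97 (0.526 to 6.59). The lowest were those of Eif2b4 at 0.201 (0.00467 to 1.38), Eif3i at 0.26 (0.0051 to 1.55) and Eif2c2 at 0.415 (0.00701 to 2.46). All 6 intervals span 1. The 8 tested members with no null read had 2 to 32 reads in WT zygotes, and none of them was called.

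Between WT 2-cell embryos and WT zygotes 20 of the 51 tested members passed the threshold, with as many higher as lower. Of these, 10 were called higher, or 19.6% of those tested beside 17.2% of all genes. The other 10 were called lower, again 19.6%, beside 17.0% of all genes. These shares lie near those of all genes, and the median log2 ratio, -0.02 over members and 0.03 over all genes, was near 0 in both. With DESeq2's median-of-ratios scaling (RLE), under which the median of all genes was 0.29, the split was 13 higher and 6 lower, beside 34.6% of all genes called. Under it Eif2ak1, Eif2s2, Eif4a1 and Eif4enif1 lost their call. edgeR's exact test at an assumed biological coefficient of variation of 0.4 called 12 members, beside 26.4% of all genes. Of these 12, 11 were among the 20, and it lost those 4 and Eif1, Eif2b1, Eif4e3, Eif4g2 and Eif4h. With 7 reads as 1 molecule in null zygotes alone, where the clumps were measured, 28 members were called (15 higher, 13 lower), beside 59.4% of all genes. After scaling to the library, a change in the RNA content of an embryo cannot be told apart from a change in the share these genes take.

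**Figure D1:**
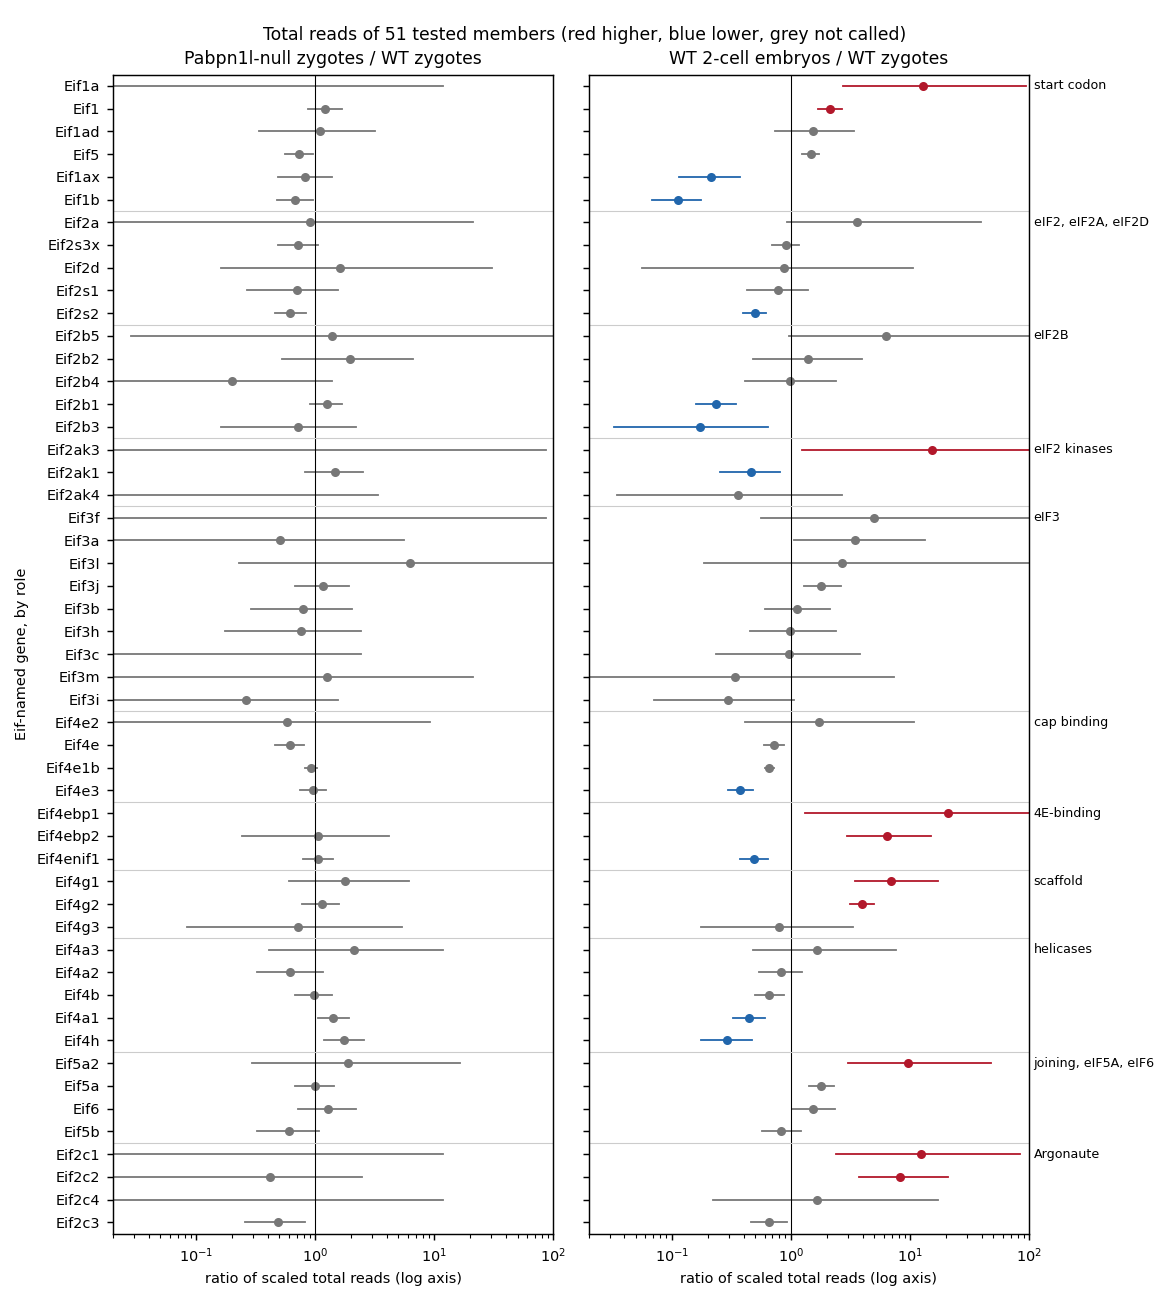
Ratios of scaled total reads for the 51 tested members, grouped by role: Pabpn1l-null over WT zygotes (left) and WT 2-cell embryos over WT zygotes (right), on log axes that cut intervals at the edges. Points are ratios, bars exact 95% intervals on molecules, and a member with no null read has no point on the left; no member is coloured on the left, and 10 red and 10 blue members stand on the right.

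Among the factors that select the start codon, paralogues went opposite ways at the 2-cell stage. Eif1 (chr11:100319949-100322099) encodes the factor that holds the scanning ribosome open until an AUG is met. It had 410 reads in null zygotes, 2067 in 2-cell embryos and 749 in WT zygotes, or 306, 536 and 253 CPM (counts scaled to equal library size). It rose 2.12-fold at the 2-cell stage (interval 1.69 to 2.67, adjusted p = 3.89e-11, exact binomial test). Its paralogue Eif1b (chr9:120492606-120495327) had 326, 156 and 1064 reads in the same order, or 243, 40.4 and 359 CPM. Eif1b fell to a ratio of 0.113 (interval 0.0677 to 0.175, adjusted p = 9.15e-32, exact binomial test), the lowest ratio of any tested member. As a share of the reads of both genes, Eif1 made up 55.7% in null zygotes, 93.0% in 2-cell embryos (interval 89.3 to 95.4%) and 41.3% in WT zygotes (35.3 to 47.6%). The 2-cell and WT zygote intervals of this share do not overlap.

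The eIF1A genes also went opposite ways, though Eif1a entered the test only through its 2-cell reads. These genes encode the factor that binds the ribosomal A site during scanning. Eif1ax on the X chromosome had 151 reads in null zygotes, 113 in 2-cell embryos and 404 in WT zygotes, and fell to a ratio of 0.215 at the 2-cell stage (interval 0.114 to 0.374, adjusted p = 9.8e-09, exact binomial test). Eif1a on chromosome 18 had 0, 199 and 12 reads, and rose 12.8-fold (interval 2.71 to 93.2, adjusted p = 9.61e-05, exact binomial test). At its zygote level only a rise of Eif1a could be called, so its rise and its share are descriptions only. Eif1a made up 0% of the pair's reads in null zygotes, 63.8% in 2-cell embryos (46.5 to 76.2%) and 2.89% in WT zygotes (0.413 to 11.7%). Eif5, the GTPase-activating factor that triggers release of eIF2, had 506, 2883 and 1518 reads, a 2-cell to WT ratio of 1.46 with an adjusted p of 2.91e-05 by the exact binomial test but under 2-fold. Eif1ad, an eIF1A-domain gene, was not called, at 1.52.

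**Figure D2:**
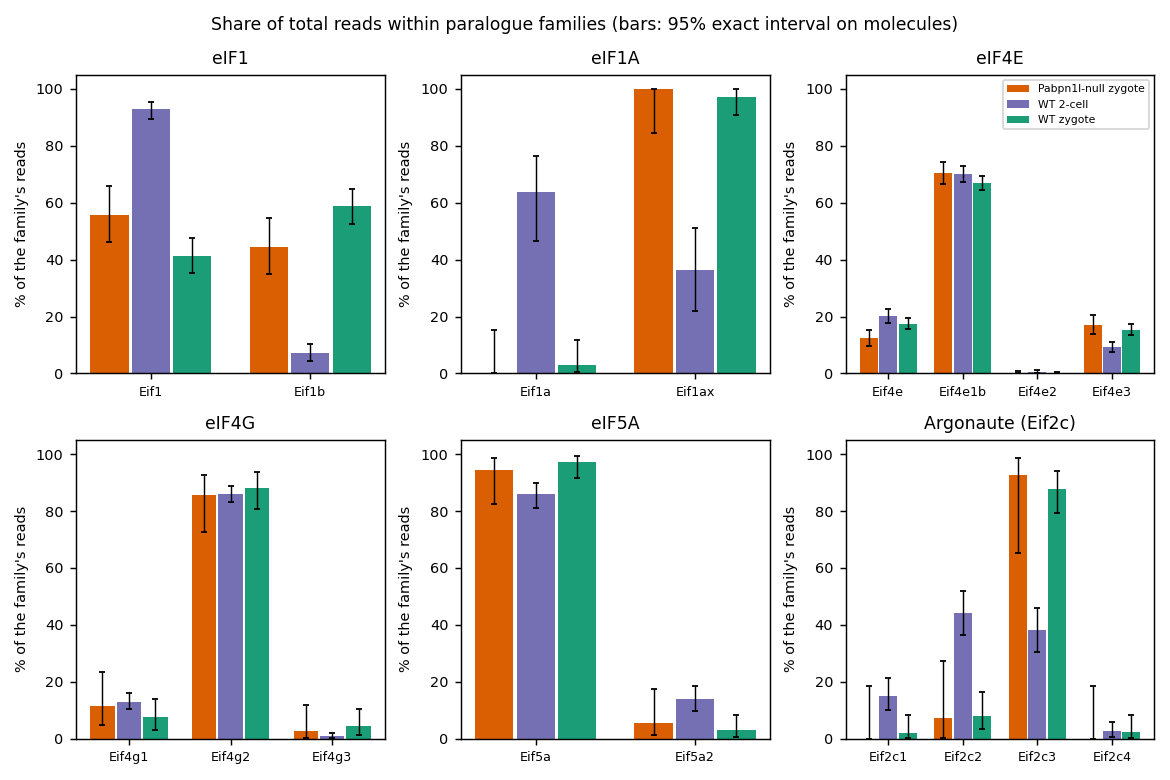
Share of a family's total reads (%) taken by each paralogue in Pabpn1l-null zygotes, WT 2-cell embryos and WT zygotes, for 6 families; bars are exact 95% intervals on molecules. Eif1, Eif1a, Eif2c1 and Eif2c2 take a larger share at the 2-cell stage than in WT zygotes, while Eif4e1b takes 70.5%, 70.1% and 66.9% in null zygotes, 2-cell embryos and WT zygotes.

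Of the tRNA-carrying complex eIF2, the beta subunit was the member called. Eif2s2 (chr2:154871410-154892906) had 951 reads in 2-cell embryos and 1472 in WT zygotes and fell to a ratio of 0.497 (interval 0.398 to 0.621, adjusted p = 1.47e-09, exact binomial test), just past the 2-fold demanded. The gamma subunit gene Eif2s3x had 256, 930 and 794 reads in null zygotes, 2-cell embryos and WT zygotes, with ratios of 0.713 (null over WT) and 0.9 (2-cell over WT). Its Y-linked counterpart Eif2s3y had 0, 2 and 0 reads and was not tested. The alpha subunit gene Eif2s1 was not called either, at 0.701 and 0.786. The summed reads of the 6 eIF2, eIF2A and eIF2D genes stood at 0.663 of WT zygotes in null zygotes (0.528 to 0.825) and at 0.671 in 2-cell embryos (0.574 to 0.784). Eif2s2 supplied 412 of their 743 reads in null zygotes, 951 of 2164 in 2-cell embryos and 1472 of 2478 in WT zygotes. Eif2a went the other way at the 2-cell stage, at 3.62 (0.923 to 39.3), and was not called.

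eIF2B recharges eIF2 with GTP, and the eIF2 kinases block that step under stress. Eif2b1, the alpha subunit, had 484 reads in null zygotes, 263 in 2-cell embryos and 858 in WT zygotes, and fell to 0.236 at the 2-cell stage (interval 0.161 to 0.344, adjusted p = 5.4e-16, exact binomial test). Eif2b3, the gamma subunit, had 29, 20 and 89 reads and fell to 0.173 (0.0324 to 0.646, adjusted p = 0.0119, exact binomial test). The other subunits were not called, at 1.39 for Eif2b2, 0.978 for Eif2b4 and 6.34 for Eif2b5, whose interval was 0.959 to 303. The 5 genes together stood at 0.378 of WT zygotes in 2-cell embryos (0.284 to 0.503), and Eif2b1 supplied 263 of their 530 reads in 2-cell embryos and 858 of 1078 in WT zygotes.

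Of the kinase genes 1 fell and 1 rose at the 2-cell stage. Eif2ak1, the heme-regulated kinase, had 162 reads in null zygotes, 148 in 2-cell embryos and 246 in WT zygotes, and fell to 0.463 at the 2-cell stage (interval 0.255 to 0.815, adjusted p = 0.0139, exact binomial test). Eif2ak3, the kinase of the unfolded protein response known as PERK, had 0, 80 and 4 reads and rose 15.4-fold (1.23 to 364, adjusted p = 0.0431, exact binomial test). Eif2ak3 entered the test only through its 2-cell reads, so at its zygote level only a rise could be tested. With no filter on low counts, so that more genes were tested, Eif2ak3 lost its call. This gene also overlaps the snoRNA gene Gm23346 in RefSeq. Eif2ak4, the amino acid sensor GCN2, was not called (0.359, 0.0348 to 2.68), and Eif2ak2, the kinase PKR, had too few reads to be tested.

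eIF3, the large complex that recruits the 40S subunit, showed no called gene. Of its 13 names 9 were tested, and 0 were called in either comparison. Of all genes 0.701% were called higher and 0.799% lower in null zygotes, and 17.2% and 17.0% in 2-cell embryos. Several of the 9 had few reads, such as Eif3m with 9, 7 and 16 in null zygotes, 2-cell embryos and WT zygotes. The absence of calls can therefore not be read as a trait of eIF3. At the 2-cell stage 5 of the 9 had a ratio above 1 and 4 below it. Eif3j, which shares its reads with Gm9781, had the most, with 170 in null zygotes, 762 in 2-cell embryos and 325 in WT zygotes, and a 2-cell ratio of 1.80 (1.28 to 2.63, adjusted p = 0.00184, exact binomial test), under the 2-fold demanded. The summed reads of the 13 stood at 0.926 of WT zygotes in null zygotes (0.626 to 1.33) and at 1.44 in 2-cell embryos (1.13 to 1.86). Eif3d, Eif3e, Eif3g and Eif3k had 0 to 6 reads per column. Whether the counted parts of these genes are complete was not given.

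Of the cap-binding genes Eif4e3 fell at the 2-cell stage, and the other three did not reach 2-fold. Eif4e1b (chr13:54783994-54788459), the oocyte form, had 2699 reads in null zygotes, 5543 in 2-cell embryos and 6456 in WT zygotes. Its ratio was 0.925 in null over WT zygotes (0.82 to 1.04) and 0.66 in 2-cell embryos over WT zygotes (0.6 to 0.727, adjusted p = 1.65e-16, exact binomial test), under 2-fold in both. Eif4e had 471, 1582 and 1684 reads and a 2-cell ratio of 0.722, also under 2-fold. Eif4e3, which binds the cap without the usual contacts, had 650, 730 and 1491 reads and fell to 0.376 (0.294 to 0.477, adjusted p = 3.58e-16, exact binomial test). The 4 genes together stood at 0.63 of WT zygotes in 2-cell embryos (0.581 to 0.681).

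Among the repressors that bind eIF4E, Eif4ebp1 and Eif4ebp2 rose while Eif4enif1 fell. Eif4ebp1 and Eif4ebp2 are switched off by mTOR kinase, and Eif4enif1 encodes 4E-T, which holds mRNA in storage granules of the oocyte. Eif4ebp2 had 26 reads in null zygotes, 447 in 2-cell embryos and 54 in WT zygotes, a 2-cell rise of 6.36-fold (2.94 to 14.8, adjusted p = 2.73e-08, exact binomial test). Eif4ebp1 had 0, 54 and 2 reads, the highest ratio of any tested member at 20.8, with a lower bound of 1.31 and no upper bound (adjusted p = 0.0318, exact binomial test). Eif4ebp1 entered the test only through its 2-cell reads, so at its zygote level only a rise could be tested. The remaining family member Eif4ebp3 had 0, 2 and 13 reads in the same order, too few to be tested. Eif4enif1 had 494, 657 and 1036 reads and fell to 0.487 (0.373 to 0.636, adjusted p = 2.85e-07, exact binomial test). In null over WT zygotes Eif4enif1 stood at 1.05 (0.788 to 1.42) and Eif4ebp2 at 1.06 (0.244 to 4.13).

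Of the 3 scaffold genes 2 rose at the 2-cell stage. Eif4g1 (chr16:20672720-20692883) encodes the bridge between cap and ribosome, and Eif4g2 (chr7:111067985-111083030), also called DAP5, a shorter relative that lacks the eIF4E site. Eif4g2 had 346 reads in null zygotes, 3470 in 2-cell embryos and 677 in WT zygotes, and rose 3.94-fold (3.16 to 4.94, adjusted p = 3.54e-43, exact binomial test). Eif4g1 had 47, 527 and 59 reads and rose 6.87-fold (3.48 to 17.3, adjusted p = 2.06e-10, exact binomial test). Eif4g3 was not called, at 0.791 with 35 reads in 2-cell embryos and 34 in WT zygotes. The 3 genes together stood at 4.03 times WT zygotes in 2-cell embryos (3.28 to 4.98) and at 1.16 times in null zygotes (0.834 to 1.62). Eif4g1, Eif4g2, Eif4a1, Eif4a2, Eif5, Eif2ak3 and Eif3a each overlap snoRNA genes in RefSeq. Of the 58 members 25 overlap some other RefSeq gene, and how such reads were counted was not given.

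Of the 5 helicase and cofactor genes 2 fell at the 2-cell stage. Eif4a1, the RNA helicase that unwinds the 5′ leader, had 531 reads in null zygotes, 473 in 2-cell embryos and 825 in WT zygotes, and fell to 0.441 (0.324 to 0.602, adjusted p = 3.53e-07, exact binomial test). Its cofactor Eif4h had 367, 176 and 462 reads and fell to 0.293 (0.176 to 0.468, adjusted p = 2.19e-07, exact binomial test). Both had ratios above 1 in null over WT zygotes, 1.42 for Eif4a1 and 1.76 for Eif4h, with adjusted p of 0.278 and 0.0934 by the exact binomial test. Eif4a2, Eif4a3 and Eif4b were not called in either comparison. Eif4a1 took 84.8% of the reads of Eif4a1 and Eif4a2 in null zygotes, 56.4% in 2-cell embryos (47.3 to 65.7%) and 70.6% in WT zygotes (63.1 to 77.4%).

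Of the factors that act at subunit joining and later, Eif5a2 was the one called. It encodes the second form of eIF5A, the hypusine-bearing protein that also serves elongation, and had 18 reads in null zygotes, 262 in 2-cell embryos and 21 in WT zygotes, a rise of 9.59-fold (3 to 48.1, adjusted p = 6.75e-06, exact binomial test). The common form Eif5a had 309, 1611 and 689 reads and a ratio of 1.80 (1.42 to 2.31, adjusted p = 3.08e-06, exact binomial test), under 2-fold. Eif5a2 made up 5.51% of the pair's reads in null zygotes, 14.0% in 2-cell embryos (9.91 to 18.5%) and 2.96% in WT zygotes (0.617 to 8.44%). Eif5b, the joining GTPase, and Eif6, which keeps the subunits apart, were not called.

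The Argonaute names changed composition at the 2-cell stage. Eif2c2 (Ago2, the slicing Argonaute) had 9 reads in null zygotes, 511 in 2-cell embryos and 48 in WT zygotes and rose 8.18-fold (3.7 to 20.6, adjusted p = 1.46e-10, exact binomial test). Eif2c1 (Ago1) had 0, 176 and 11 reads and rose 12.3-fold (2.4 to 83.7, adjusted p = 0.000266, exact binomial test). It entered the test only through its 2-cell reads, so at its zygote level only a rise could be called. Eif2c3 (Ago3) had 115, 443 and 518 reads and was not called, at 0.657. Its share of the family's reads was 92.7% in null zygotes, 38.2% in 2-cell embryos (30.5 to 45.8%) and 87.7% in WT zygotes (79.2 to 94.1%). Without these 4 names 8 of 47 members were called higher and 10 lower, beside 17.2% and 17.0% of all genes, an alternative chosen after seeing the data.

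**Figure D3:**
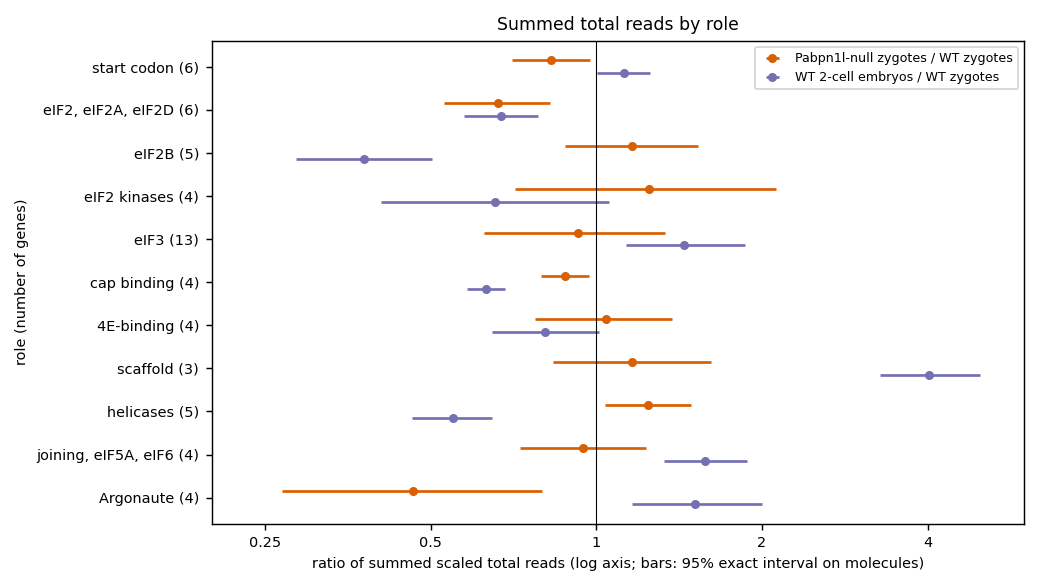
Ratio of summed scaled total reads (log axis) for 11 role groups, with the number of genes in brackets: Pabpn1l-null over WT zygotes (orange) and WT 2-cell embryos over WT zygotes (violet); bars are exact 95% intervals on molecules. At the 2-cell stage the scaffold genes stand highest at 4.03 and eIF2B lowest at 0.378, and the role sums of null zygotes lie between 0.464 and 1.25.

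The sum over all members stood at 0.913 of WT zygotes in null zygotes (0.858 to 0.971) and at 0.907 in 2-cell embryos (0.867 to 0.949), although with RLE scaling the 2-cell value was 1.10. Of the 10 genes called higher, 8 had 2 to 59 reads in WT zygotes, and the exceptions were Eif1 and Eif4g2. The 10 called lower had 89 to 1491 reads there. With so few WT zygote reads a member can be called higher far more readily than lower, so this split cannot be read as a trait of the genes. Eif1a, Eif2ak3, Eif2c1 and Eif4ebp1 passed the filter of 20 reads only through their 2-cell reads. With so few zygote reads Eif2ak3 and Eif4ebp1 could enter by a rise but not by a fall. Eif1a and Eif2c1 could not enter by a fall of 2-fold or more, so they could not be called lower either. A further 7 members passed the adjusted p at the 2-cell stage without reaching 2-fold. Of these, 3 had ratios above 1 (Eif5, Eif5a and Eif3j) and 4 below (Eif2c3, Eif4b, Eif4e and Eif4e1b). The share of all genes that did so was not counted.

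No member was called in T-to-C reads or in their share. The members together had 302 T-to-C reads in null zygotes, 890 in 2-cell embryos and 696 in WT zygotes, which were 3.01%, 3.10% and 2.87% of their reads, against 3.86%, 4.54% and 3.03% over all genes. In null against WT zygotes 0 of 26 tested members were called higher (0.0686% of all genes) and 0 lower (0%), and 0 had an unadjusted p under 0.05 by the exact binomial test. In 2-cell embryos against WT zygotes 0 of 26 were called higher (4.34% of all genes) and 0 lower (1.71%), with 1 unadjusted p under 0.05 by the exact binomial test. edgeR's exact test gave 1 call, beside 21.4% of all genes. The T-to-C share was called in 0 of 31 members in null against WT zygotes, where 0% of all genes were higher and 0.0167% lower by Fisher's exact test. For 2-cell embryos against WT zygotes it was called in 0 of 39 members, with 1.84% of all genes higher and 0.0579% lower, and no member had an unadjusted p under 0.05 in either comparison. At 7 reads per molecule most members had fewer than 10 T-to-C molecules, so only large differences were detectable at this depth.

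Eif5 came closest. It had 18 T-to-C reads in null zygotes, 229 in 2-cell embryos and 80 in WT zygotes, a 2-cell ratio of 2.20 (1.14 to 5.06) with an unadjusted p of 0.0144 and an adjusted p of 0.16 by the exact binomial test. T-to-C reads were 3.56%, 7.94% and 5.27% of its reads in the same order. Eif2ak1, whose total reads fell at the 2-cell stage, had 0 T-to-C reads in null zygotes, 33 in 2-cell embryos and 17 in WT zygotes, or 0%, 22.3% (8.22 to 47.2%) and 6.91% (0.7 to 19.2%) of its reads. That difference in share had an unadjusted p of 0.0899 and an adjusted p of 1 by Fisher's exact test, and Eif2ak1 overlaps Ankrd61 and Aimp2.

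The 10 members whose total reads were called higher at the 2-cell stage had 22 T-to-C reads in null zygotes, 188 in 2-cell embryos and 43 in WT zygotes, or 2.57%, 2.41% and 2.63% of their reads. Most of these reads came from Eif1 and Eif4g2, and the other 8 had 4, 89 and 7 T-to-C reads, or 4.0%, 3.95% and 3.32%, against 4.54% over all genes in 2-cell embryos. The 10 called lower had 75, 106 and 171, or 2.08%, 2.88% and 2.15%. Eif4g2 had 0 T-to-C reads of 346 in null zygotes (up to 7.25%), 58 in 2-cell embryos (1.67%, 0.699 to 3.15%) and 18 in WT zygotes (2.66%, 0.642 to 8.77%). Eif4g1 had 4, 33 and 2, or 8.51%, 6.26% and 3.39%, with intervals that overlap. Eif2c2 had 0, 35 and 4, or 0%, 6.85% (2.26 to 15.3%) and 8.33% (0.361 to 57.9%). Eif4e1b, with 95, 204 and 226 T-to-C reads, held 3.52%, 3.68% and 3.50%, which differed by less than their intervals.

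**Figure D4:**
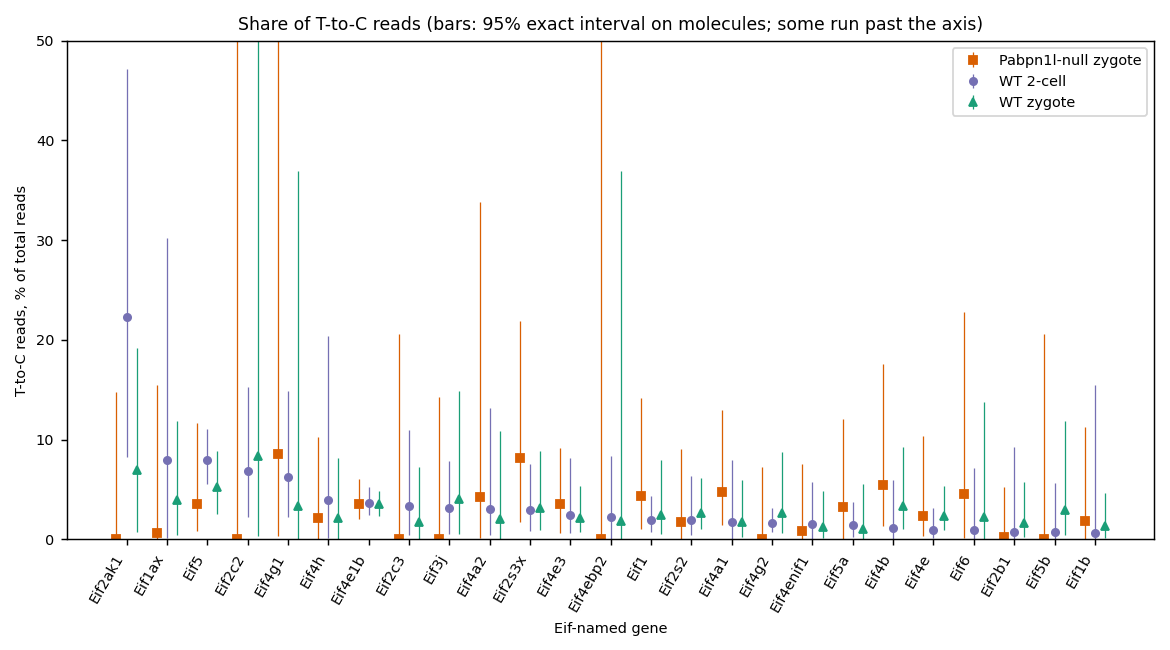
T-to-C reads as a percentage of total reads for 25 members with at least 10 T-to-C reads over the 3 columns (Eif2d, with few reads in all, is left out), in Pabpn1l-null zygotes, WT 2-cell embryos and WT zygotes. Bars are exact 95% intervals on molecules, some past the axis; they overlap between columns for every member shown, with Eif2ak1 in 2-cell embryos highest at 22.3%.

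Around the Eif genes, 3 lists of other genes were read beside them. Of 10 elongation and termination genes, 1 was called higher in null zygotes and 0 lower, beside 0.701% and 0.799% of all genes. It was Eef2, the translocation factor, with 394 reads against 407 in WT zygotes, a ratio of 2.14 (1.45 to 3.14, adjusted p = 0.00441, exact binomial test). At the 2-cell stage 1 of 10 rose, the termination factor Etf1 at 2.52-fold, and 3 fell, Eef1b2 to 0.221, Eef1e1 to 0.12 and Gspt1 to 0.387, beside 17.2% of all genes higher and 17.0% lower. Of 24 initiation cofactors and regulators, 22 of them tested, 0 were called in null zygotes in either direction. At the 2-cell stage 5 of the 22 rose and 4 fell, shares near those of all genes. The third list held 8 names chosen as eIF1A-like genes of 2-cell embryos, a label that was not checked here. Of these, 7 were in the table (BB287469, Gm2016, Gm2022, Gm4027, Gm4340, Gm5662 and Gm8300). They summed to 0 reads in null zygotes, 7787 in 2-cell embryos and 33 in WT zygotes, a 2-cell ratio of 181 (73.0 to 528), and 7 of 7 rose at the 2-cell stage. As they were chosen as genes of that stage with earlier results known, their rise is no independent result. Their reads are not part of the shares of Eif1a and Eif1ax, which rest on 312 reads in 2-cell embryos.

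The 5 that rose were the helicase Ddx3x at 2.05-fold, the cap-and-TOP-mRNA-binding protein Larp1 at 37.6-fold (10.2 to 315, from 684 reads in 2-cell embryos and 14 in WT zygotes), the eIF4E kinase Mknk2 at 9.05-fold, and Ppp1r15a and Ppp1r15b, which direct dephosphorylation of eIF2, at 6.30-fold and 14.9-fold. The 4 that fell were the adaptor Nck1 at 0.239, the oocyte poly(A)-binding protein Pabpc1l at 0.437, and Paip2 and Paip2b, which remove poly(A)-binding protein from the tail, at 0.399 and 0.46. Paip2b had 3655 reads in 2-cell embryos and 6115 in WT zygotes. In null against WT zygotes Paip2b stood at 0.791 with an adjusted p of 0.0143 and Paip1 at 0.65 with an adjusted p of 0.0297, both by the exact binomial test and under 2-fold.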

How the data were processed

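The deposited table holds whole-number counts of reads and of T-to-C reads per gene, made by the authors, with 1 column pair per group. Per the submitters' processing notes the build is mm10. Aligner, counter, annotation, strand, duplicate handling and any pooling of a group's samples into its columns are not stated in the sources. For a gene in several rows the best-covered one was used, and 47 rows with a date for a name were left out. The planned fit was the exact conditional binomial test on molecules (7 reads each) over all genes with at least 20 reads, or 10 T-to-C reads, over the 3 columns. Scaling used TMM factors (edgeR 4.0.16), p values were Benjamini-Hochberg adjusted over all genes tested, and a call also needed 2-fold. T-to-C shares used Fisher's exact test where both columns had 20 reads. edgeR's quasi-likelihood test had no residual degrees of freedom. The scripts were tested on simulated counts. The members, gene lists, tests and thresholds were chosen with earlier results of these data known. Genes named in full were the called members, the most-read member of each role, a few fixed pairs, and the 3 highest and lowest ratios per comparison, the lowest in null zygotes taken among members with reads in both columns. Computation used Python 3.11.15, SciPy 1.17.1 and R 4.3.3.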

Additional observations from a re-analysis of the deposited data

How the results depend on the processing

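No paired analysis was possible because the table has 1 column pair per group and its columns carry no replicate number. Leaving out a replicate was not possible for the same reason.

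With every read taken as 1 molecule, 10 of 51 members were called in total reads in null against WT zygotes (2 higher, 8 lower), beside 25.1% of all genes. In T-to-C reads 4 of 26 were called, beside 19.3% of all genes, and in T-to-C share 5 of 31, beside 13.3%. The main count was 0 each time. With 7 reads per molecule in the null column alone, the count in total reads was 1, beside 3.36% of all genes. In 2-cell embryos against WT zygotes either change gave 28 calls in total reads, 11 in T-to-C reads and 4 in share, against 20, 0 and 0. Of all genes 59.4%, 51.1% and 15.7% were called with these changes. The 20 calls at the 2-cell stage became 13 where at least 50 reads were demanded in 2 columns, with 29 members tested, beside 43.1% of all genes. They became 12, beside 26.4% of all genes, by edgeR's exact test at an assumed variation of 0.4. Of these 12, 11 were among the 20, and Eif1, Eif2ak1, Eif2b1, Eif2s2, Eif4a1, Eif4e3, Eif4enif1, Eif4g2 and Eif4h lost their call. RLE scaling gave 19, beside 34.6% of all genes, and lost Eif2ak1, Eif2s2, Eif4a1 and Eif4enif1. The 2-cell T-to-C count was 1 with RLE scaling, with the stricter filter, with T-to-C reads scaled by their own total (1 lower) and by edgeR's exact test. Of all genes 7.4%, 40.9%, 5.2% and 21.4% were called in the same order. The member sum in null over WT zygotes was 0.975 with column totals. In 2-cell embryos over WT zygotes it was 1.10 with RLE scaling and 0.820 without Eif4g2. The member median (log2) was -0.05 in null over WT zygotes under the stricter filter, and in 2-cell embryos over WT zygotes 0.25 with RLE scaling and -0.29 under that filter. No called member changed direction under any alternative run. The cause of these shifts was not tested, and the stricter filter also left fewer members to test.

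The null column had the fewest reads, 1270347, so differences of low members were least detectable there.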

Other observations

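Eif2d, which encodes a factor that delivers tRNA to the ribosome without eIF2, had few reads, but most of them carried T-to-C. They were 11 of 11 reads in null zygotes, 15 of 17 in 2-cell embryos and 10 of 15 in WT zygotes, or 100%, 88.2% and 66.7%. A second row of the same gene held 3, 1 and 5 reads with 0 T-to-C reads in each column. The share was not tested because no column reached 20 reads, and this gene was chosen after its values were seen. Eif2d overlaps Rassf5 in RefSeq.

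Eif4e1b also stands in 2 distinct rows. The smaller one held 567 reads in null zygotes, 1117 in 2-cell embryos and 1346 in WT zygotes, with 4.59%, 2.06% and 4.16% T-to-C reads. RefSeq names 10 Eif pseudogenes, of which 0 are in the table.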
